A study of Rattus norvegicus with 6 samples.

Results

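The genes described here are 36 protein chaperones and their regulators, chosen by name: 20 of the endoplasmic reticulum (ER) and 16 of the cytosol and mitochondria. Of these names, 35 had a row among the 30498 genes of the tables (19 of the ER and 16 of the cytosol and mitochondria), and Manf, which encodes a secreted ER-stress protein, was not analysed here. They were measured in brains of newborn rats (Rattus norvegicus) in a model of fetal growth restriction. In the CR group the dams were under caloric restriction, and the other group is labelled control with no further detail. Birth was by Caesarean section, with the brain dissected without delay. There were 3 libraries of polyadenylated RNA in each group, all labelled whole brain. The labels do not give the strain. The labels do not tie libraries to pups or litters, and p-values then measure only the spread between these libraries.

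Chaperones help proteins reach and keep their folded shape. In the ER, BiP (Hspa5), GRP94 (Hsp90b1), the calnexin and calreticulin lectins and the protein disulfide isomerases fold secreted and membrane proteins, and when unfolded protein builds up, the sensors ATF6, IRE1 and PERK raise their transcription (the unfolded protein response). In the cytosol, HSP70 and HSP90 with their cochaperones do this work, the ring-shaped chaperonin TRiC folds actin and tubulin, and heat shock factor 1 (HSF1) raises the inducible members after heat or other protein damage. Growing neurons make much membrane, receptor and cytoskeletal protein, and the constitutive chaperones are abundant in developing brain.

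Levels are in FPKM, fragments scaled to exon length and library depth, so they can be compared between genes. The reads behind them, worked out from FPKM and exon length, came to between 14030961 and 25734737 per library, and 3 reads on 1 kb of exon stand for 0.117 to 0.214 FPKM. The 35 genes had from 27 reads (Hspb1 in 1 library) to 44594 reads (Hsp90ab1) per library, and all 35 passed the filter of a mean of at least 0.5 FPKM, as did 15247 genes in all. The libraries differed in brain region as well as in feeding. Summed markers of midbrain, hindbrain and cerebellum (13 genes) were at 1.48 to 2.66 FPKM in control and 51.5 to 61.9 FPKM in CR, so the control libraries held little of these regions despite the label. Dorsal telencephalic markers (10 genes) were at 476 to 599 FPKM in control and 178 to 279 FPKM in CR, whereas neuronal markers (6 genes) were at 2728 to 3051 and 2827 to 2884 FPKM. The part of this difference in the results below was not tested. In both sums of region markers the control libraries lay apart from the CR libraries. Region and feeding therefore cannot be told apart in any comparison of CR with control. In bulk tissue, fewer cells of a type and less RNA per cell cannot be told apart. Among the control libraries, replicate 3 was the highest in many of the genes described here, so values without it are given beside the results that rest on it.

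The promoters of many of these genes carry the letters of the elements through which such stress responses act. These sequences are shown because control replicate 3 was the highest library in most genes that hold them, in some by little. That library was singled out from the values of these same genes. Whether the elements had a part in its height was not tested. Control replicate 3 was also well above the other controls in Dnajb1 and Hspb1, whose promoters held no match. RefSeq promoter windows (assembly GRCr8, from 250 bases before to 50 after the start) were at hand for 30 of the 35 genes, all but Pdia3, Pdia6, Atf6, Hsp90aa1 and Hsf1. Both strands were searched for 3 motifs. The ER stress response element was CCAAT and CCACG with 9 free bases between them, its second form ERSE-II was ATTGG and CCACG with 1 free base between them, and the heat shock element was GAA, TTC and GAA with 2 free bases between neighbours. The first was found in 0.0657% of 33469 RefSeq windows, the second in 0.0508% and the heat shock element in 0.798%. Among the 16 ER genes with a window, 7 held the first form and 3 others held ERSE-II, and none of the 14 cytosolic and mitochondrial genes with a window held either. The heat shock element was in 5 of those 14, of which Hspd1 and Hspe1 share the same matches, and in none of the 16. The windows of Hspa5 (chr3:38452766-38453065, plus strand), Hsp90b1 (chr7:23012244-23012543, minus strand) and Hsph1 (chr12:10427118-10427417, plus strand) follow, 5′ to 3′ on the gene's strand, with the fixed letters of each match in capitals.
Hspa5: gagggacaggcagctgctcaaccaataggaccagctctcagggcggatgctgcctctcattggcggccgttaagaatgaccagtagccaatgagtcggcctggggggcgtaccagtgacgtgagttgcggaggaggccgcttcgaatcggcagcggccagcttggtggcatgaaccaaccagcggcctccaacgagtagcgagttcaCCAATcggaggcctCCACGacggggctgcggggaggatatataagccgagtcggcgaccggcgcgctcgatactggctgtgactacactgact
Hsp90b1: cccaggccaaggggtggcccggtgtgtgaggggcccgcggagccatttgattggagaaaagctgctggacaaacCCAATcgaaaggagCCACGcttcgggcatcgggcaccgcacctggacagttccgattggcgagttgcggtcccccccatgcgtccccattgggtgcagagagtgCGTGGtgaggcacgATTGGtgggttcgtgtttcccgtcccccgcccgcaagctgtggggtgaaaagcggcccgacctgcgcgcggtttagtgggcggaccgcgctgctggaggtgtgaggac
Hsph1: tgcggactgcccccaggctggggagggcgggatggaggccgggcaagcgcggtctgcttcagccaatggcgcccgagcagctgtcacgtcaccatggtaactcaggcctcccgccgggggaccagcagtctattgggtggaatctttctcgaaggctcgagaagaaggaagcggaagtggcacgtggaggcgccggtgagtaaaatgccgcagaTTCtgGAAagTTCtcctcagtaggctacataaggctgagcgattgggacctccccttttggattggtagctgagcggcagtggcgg
In Hspa5 the match runs from position -43 to -25 relative to the start, in Hsp90b1 there are 2 (from -176 to -158, and from -72 to -54 on the other strand), and in Hsph1 the heat shock element lies on the other strand from -36 to -24. The other matches, written in the direction of the motif, are shown with the free letters in lower case, and that of Dnaja1 has the same letters as that of Hsph1.
Dnajc3: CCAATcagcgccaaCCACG
Xbp1: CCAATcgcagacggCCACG
Creld2: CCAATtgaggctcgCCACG
Calr: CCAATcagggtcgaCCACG
Canx: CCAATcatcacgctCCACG
Dnajb11: ATTGGcCCACG
Herpud1: ATTGGgCCACG
Hspa8: GAAagTTCcaGAA
Dnaja1: GAActTTCcaGAA
Hyou1 held ERSE-II at 2 places, and Hspa8 held the heat shock element at 2 places, of which the first is shown.

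Hspd1 and Hspe1, the mitochondrial chaperonin and its lid, lie head to head on chromosome 9 with 126 bases between them, and their promoter windows share 211 bases. The shared stretch holds overlapping heat shock elements, shown in the Hspe1 window (chr9:64084077-64084376, plus strand), because both genes can be read from it.
Hspe1: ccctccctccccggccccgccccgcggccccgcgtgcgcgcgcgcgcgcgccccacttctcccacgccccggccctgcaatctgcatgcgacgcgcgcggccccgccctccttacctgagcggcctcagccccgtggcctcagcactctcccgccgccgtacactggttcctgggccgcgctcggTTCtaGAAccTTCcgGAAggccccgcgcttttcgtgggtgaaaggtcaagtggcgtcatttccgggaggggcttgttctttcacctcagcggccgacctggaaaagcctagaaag
A match describes the letters only. Binding was not measured. The windows of 15 genes held none of the 3 motifs. Inexact matches and other stress elements were not searched for, so these genes may hold them. The 15 include Pdia4, Dnajb9, Edem1, Sec61b and Cct3, which are the 5 genes with a window that passed the test described next. The Pdia4 window (chr4:78153142-78153441, minus strand) is shown for comparison.
Pdia4: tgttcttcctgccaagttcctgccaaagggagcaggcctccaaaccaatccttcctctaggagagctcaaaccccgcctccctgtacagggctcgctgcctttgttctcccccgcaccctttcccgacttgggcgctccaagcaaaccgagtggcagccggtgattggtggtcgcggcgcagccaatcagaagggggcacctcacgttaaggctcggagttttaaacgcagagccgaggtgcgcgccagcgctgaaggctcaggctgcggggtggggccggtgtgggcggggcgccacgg

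The comparison of CR with control asked whether chaperone genes differed between these groups, which differed in brain region as well as in feeding. Of the 35 genes, 6 (17.1%) passed an adjusted p of 0.05 in limma fitted to log2(FPKM + 1), against 33.9% of the 15247 genes tested. Dnajb9, Pdia4, Pdia6 and Edem1 of the ER and Cct3 of the cytosol were lower in CR, and Sec61b of the ER was higher. This makes 4 of 19 ER genes lower (21.1%, against 16.2% of all genes tested) and 1 higher (5.26%, against 17.7%). In the cytosolic and mitochondrial set 1 of 16 was lower (6.25%) and none was higher, also at an unadjusted p of 0.05. By limma-voom on the reads, where 37.9% of all genes passed (20.2% higher and 17.7% lower), the counts were the same, with 4 ER genes lower, 1 ER gene higher and 1 other gene lower. The groups did not overlap in 10 of the 35 genes (28.6%), against 50.3% of all genes tested. In 8 of them CR lay below control and in 2 above (24.3% and 26.1% of all genes). The median log2 fold change was -0.15 for the ER genes and -0.06 for the others, beside 0.01 for all genes tested. With control replicate 3 left out, where 33.0% of all genes passed (17.7% higher and 15.4% lower), 4 ER genes were lower and 1 higher, and 2 of the others were higher. The medians were then 0.0042 and 0.0097, beside 0.01 for all genes, so the shift of both sets to lower values rested on that library.

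**Figure D1:**
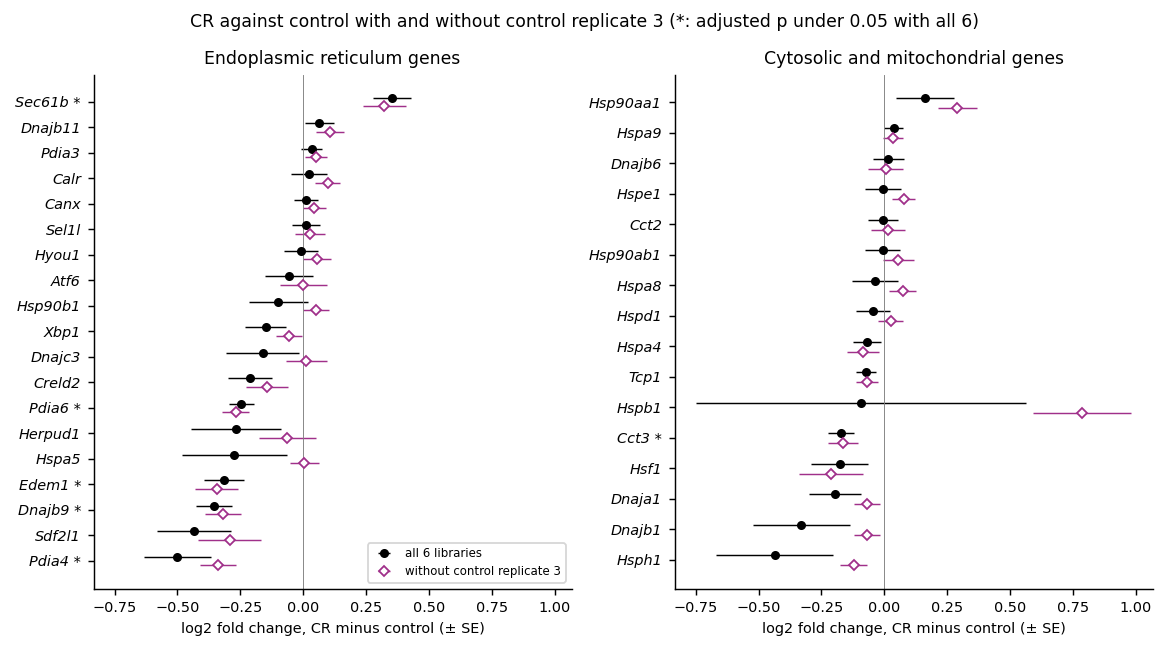
Log2 fold change of each gene, CR minus control on the log2(FPKM + 1) scale, with its SE, from all 6 libraries (filled circles) and without control replicate 3 (open diamonds); asterisks mark an adjusted p under 0.05 with all 6. Hspa5 moves from -0.27 to 0.0042 and Hspb1 from -0.09 to 0.78 when that library is left out, whereas Dnajb9, Pdia6, Edem1 and Sec61b stay close to their first value.

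Among the ER genes that passed, Dnajb9, Pdia4 and Edem1 act in folding and disposal in the lumen. Dnajb9 (ERdj4) is a BiP cochaperone that is induced by the IRE1 branch and holds IRE1 in its inactive form. It was at 9.77, 9.67 and 10.6 FPKM in control (in the order of replicate number, as throughout) and at 7.73, 7.95 and 7.13 FPKM in CR. All CR values were below all control values (log2 fold change -0.36, SE 0.0705, limma adjusted p = 0.00808). Dnajb9 passed in 17 of 17 alternative settings (adjusted p from 0.00547 to 0.0375) and lies on chromosome 6 from 61269913 to 61275063 on mRatBN7.2, the build of the tables.

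Pdia4 (ERp72) is a disulfide isomerase of the ER. It was at 22.8, 20.3 and 30.4 FPKM in control and at 17.8, 16.2 and 16.3 FPKM in CR. Control replicate 3 was the highest and the CR values lay below the lowest control value (log2 fold change -0.50, SE 0.133, limma adjusted p = 0.0238). Without control replicate 3 the log2 fold change was -0.34 (adjusted p = 0.0140). Leaving out CR replicate 2 or 3 (adjusted p = 0.0791 and 0.0747) or the filter on low values (0.0583) ended the call, and over 17 alternatives adjusted p ran from 0.00957 to 0.0791. Pdia4 lies on chromosome 4 from 76803198 to 76822107.

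Pdia6 (P5), a disulfide isomerase that works with BiP, was at 68.1, 72.5 and 67.0 FPKM in control and at 59.9, 55.7 and 58.8 FPKM in CR. Control and CR did not overlap, and control replicate 3 was the lowest control value here (log2 fold change -0.25, SE 0.0499, limma adjusted p = 0.00865, and 0.00406 to 0.0372 over the 17 alternatives). Pdia6 lies on chromosome 6 from 40062926 to 40080613.

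Edem1, a lectin that hands misfolded glycoproteins to degradation, was at 6.96, 6.56 and 6.29 FPKM in control and at 5.33, 5.32 and 4.69 FPKM in CR. The groups did not overlap (log2 fold change -0.32, SE 0.0800, limma adjusted p = 0.0202). Leaving out control replicate 1 (adjusted p = 0.0600) or CR replicate 3 (0.0818) ended the call, and adjusted p ran from 0.00618 to 0.0818 over the alternatives. Edem1 lies on chromosome 4 from 141797701 to 141829717.

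Sec61b, the beta subunit of the channel through which new proteins enter the ER, was the 1 gene of the 35 that passed as higher. It was at 137, 134 and 127 FPKM in control and at 152, 186 and 172 FPKM in CR. Every CR value lay above every control value (log2 fold change 0.35, SE 0.0755, limma adjusted p = 0.0109), and it passed in 17 of 17 alternatives (0.00528 to 0.0411). Sec61b lies on chromosome 5 from 61773594 to 61781804 and has 562 bases of exon.

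Cct3, the gamma subunit of TRiC, was at 106, 115 and 112 FPKM in control and at 104, 95.2 and 95.7 FPKM in CR. No CR value reached a control value, with CR replicate 1 close to control replicate 1 (log2 fold change -0.17, SE 0.0521, limma adjusted p = 0.0375). The call held in 9 of 17 alternatives, with adjusted p from 0.0143 to 0.127. It was lost without control replicate 2 (0.107), control replicate 3 (0.0727), CR replicate 2 (0.127) or CR replicate 3 (0.122), with the replicate block (0.0805, where 29.2% of all genes passed), with no filter (0.0592), with median-ratio size factors (0.0514) and without the trend (0.0884). Cct3 lies on chromosome 2 from 173765698 to 173790757.

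**Figure D2:**
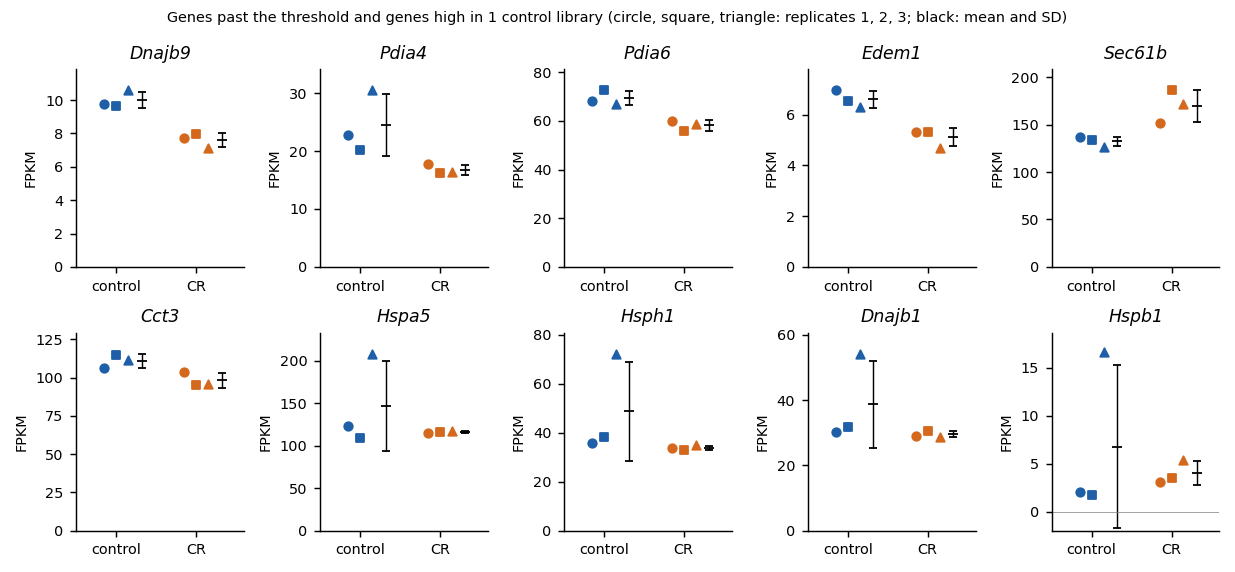
FPKM per library for the 6 genes that passed the test (Dnajb9, Pdia4, Pdia6, Edem1, Sec61b, Cct3) and for 4 genes that were highest in control replicate 3 (Hspa5, Hsph1, Dnajb1, Hspb1); symbols are replicates 1, 2 and 3, and black bars are the mean ± SD of 3 libraries. The CR values of Hspa5 lie between 116 and 117 FPKM, and the control SD of Hspb1 (8.52 FPKM) exceeds its control mean (6.77 FPKM).

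The central chaperones of the ER did not pass. BiP (Hspa5), the HSP70 of the ER lumen, was at 123, 109 and 208 FPKM in control and at 116, 117 and 117 FPKM in CR. Control replicate 3 was 1.79 times the mean of the other controls, and those lay on either side of the CR values (log2 fold change -0.27, SE 0.208, limma adjusted p = 0.343). Without control replicate 3 the log2 fold change was 0.0042 (adjusted p = 0.963, the highest of the 17 alternatives, which reached down to 0.119). Hspa5 lies on chromosome 3 from 18055405 to 18059891.

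GRP94 (Hsp90b1), the HSP90 of the ER, was at 120, 119 and 164 FPKM in control and at 125, 118 and 130 FPKM in CR. Again control replicate 3 was alone at the top and the other values of both groups mingled (log2 fold change -0.10, SE 0.118, limma adjusted p = 0.551; without control replicate 3, 0.05). Dnajc3 (p58IPK), a BiP cochaperone that also restrains PERK, was at 8.48, 7.61 and 11.9 FPKM in control and 8.12 ± 0.496 FPKM (SD, n = 3) in CR. Herpud1, a membrane component of ER-associated degradation, was at 3.89, 3.51 and 6.17 FPKM in control and 3.50 ± 0.464 FPKM in CR. Xbp1, whose mRNA is spliced by IRE1 to give a transcription factor, was at 41.9, 39.5 and 49.6 FPKM in control and 39.1 ± 1.14 FPKM in CR. Gene-level FPKM do not separate spliced from unspliced Xbp1 mRNA. In each of these 3 genes control replicate 3 was the highest of the 6 libraries, and limma adjusted p was between 0.193 and 0.424. Leaving that library out, the log2 fold changes of Dnajc3, Herpud1 and Xbp1 were 0.01, -0.06 and -0.06.

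Sdf2l1 and Creld2, ER-stress targets of the lumen, had lower means in CR without passing. Sdf2l1 was at 8.11, 5.86 and 9.59 FPKM in control and at 5.39, 5.41 and 5.56 FPKM in CR. The groups did not overlap, but control replicate 2 was close to the highest CR value (log2 fold change -0.43, SE 0.148, limma adjusted p = 0.0566). It passed without control replicate 2 (adjusted p = 0.00719) and in 4 other alternatives, and the range was 0.00719 to 0.137. Creld2 was at 16.5, 13.6 and 17.3 FPKM in control and 13.5 ± 0.299 FPKM in CR (limma adjusted p = 0.102, and 0.0153 to 0.232 over the alternatives). Creld2 passed without control replicate 2 and with median-ratio size factors.

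The lectin chaperones and their partner isomerase were nearly level between the groups. Calr (calreticulin) was at 210, 223 and 253 FPKM in control and at 232, 226 and 237 FPKM in CR, the highest level of the ER genes. Canx (calnexin) was at 138, 145 and 151 FPKM in control and at 148, 144 and 145 FPKM in CR. Pdia3 (ERp57), which works with both, was at 107, 103 and 109 FPKM in control and at 106, 109 and 111 FPKM in CR. The groups overlapped in these 3 genes, and their log2 fold changes were 0.02 (SE 0.0701), 0.01 (SE 0.0468) and 0.03 (SE 0.0414). The remaining ER genes also overlapped between the groups. They are the BiP cochaperone Dnajb11 (log2 fold change 0.06, SE 0.0588), the BiP exchange factor Hyou1 (-0.01, SE 0.0689), the degradation adaptor Sel1l (0.01, SE 0.0553) and the sensor Atf6 (-0.06, SE 0.0956), with limma adjusted p between 0.436 and 0.931.

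**Figure D3:**
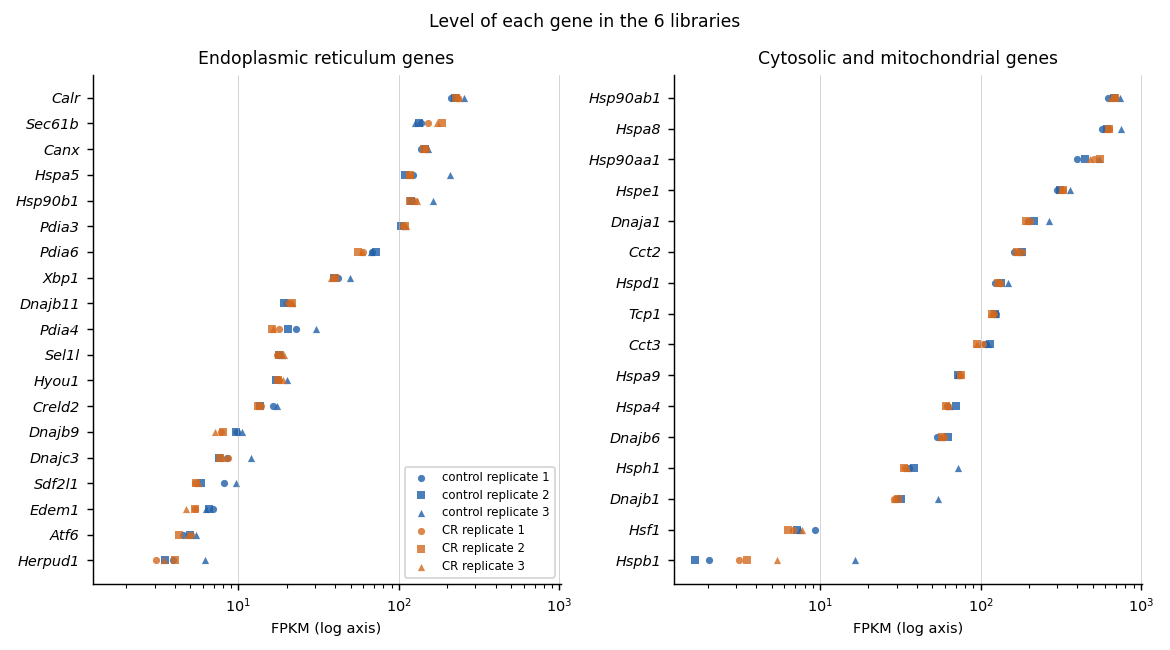
Level of each gene in FPKM on a log axis, one symbol per library (blue for control, orange for CR; circle, square and triangle for replicates 1 to 3), ordered by mean. Means over the 6 libraries run from 4.01 FPKM (Herpud1) to 230.3 (Calr) among ER genes and from 5.39 (Hspb1) to 678 (Hsp90ab1) among the others.

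In the cytosol the constitutive chaperones had the highest levels of all 35 genes. Hsp90ab1, the constitutive HSP90, was at 621, 680.1 and 740.1 FPKM in control and at 689, 687 and 651 FPKM in CR. Hspa8 (HSC70), the constitutive HSP70, was at 575, 618 and 749 FPKM in control and at 634, 631 and 616 FPKM in CR. Both had control replicate 3 at the top and control replicate 1 at the bottom, with the CR values between them. Their log2 fold changes were -0.01 (SE 0.0702) and -0.04 (SE 0.0930). Hspa8 and both cytosolic HSP90 genes are known to have processed pseudogenes, so their reads may have been split among copies.

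Hsp90aa1, the inducible HSP90, was at 399.9, 446 and 551 FPKM in control and at 510.0, 558 and 484 FPKM in CR. The groups overlapped through control replicate 3 (log2 fold change 0.16, SE 0.115, limma adjusted p = 0.309). With that library left out the 3 CR values lay above the other controls (log2 fold change 0.29, adjusted p = 0.0311, the lowest of 17 alternatives, which reached 0.698). The ratio of Hsp90aa1 to Hsp90ab1 FPKM was 0.644, 0.655 and 0.745 in control and 0.741, 0.811 and 0.744 in CR. In that ratio control replicate 3 lay within the CR range and the other control libraries lay below it.

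Stress-inducible HSP70 cochaperones were higher in control replicate 3 than in the other 5 libraries. Hsph1 (HSP105), an exchange factor for HSP70, was at 35.8, 38.3 and 72.1 FPKM in control and at 33.8, 33.2 and 34.9 FPKM in CR. All CR values lay below the controls, though only control replicate 3 was far above the rest (log2 fold change -0.44, SE 0.232, limma adjusted p = 0.184, and 0.0461 to 0.322 over the alternatives; it passed only with Y-linked RNA as a covariate). Dnajb1 (HSP40), an HSP70 cochaperone, was at 30.2, 31.9 and 54.0 FPKM in control and at 29.1, 30.6 and 28.8 FPKM in CR. Dnaja1, of the same family, was at 198, 214 and 268 FPKM in control and at 202, 193 and 194 FPKM in CR. Control replicate 3 was 1.94, 1.74 and 1.30 times the mean of the other controls in Hsph1, Dnajb1 and Dnaja1, and none of the 3 passed. Leaving it out, their log2 fold changes were -0.12, -0.07 and -0.07.

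Hspb1 (HSP27), a small heat shock protein that binds unfolding proteins without ATP, had the widest spread. It was at 2.04, 1.67 and 16.6 FPKM in control, from 27 to 289 reads over the 6 libraries, and at 3.11, 3.50 and 5.40 FPKM in CR. Control replicate 3 was 8.95 times the mean of the other controls, and these lay below every CR value. With all libraries the log2 fold change was -0.09 (SE 0.656, limma adjusted p = 0.930). With that library left out it was 0.78 (adjusted p = 0.0240, the lowest of 17 alternatives, which reached 0.999). Hspb1 is known to be expressed in brainstem motor neurons, endothelium and reactive glia. Endothelial markers (4 genes) summed to 17.3 to 19.9 FPKM in control and 18.9 to 23.9 FPKM in CR, and astrocyte markers (7 genes) to 191 to 232 and 330 to 365 FPKM. Their part in the Hspb1 values was not tested.

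Hsf1 itself was not among the genes high in control replicate 3, where it was at 7.54 FPKM, against 9.35 and 7.13 FPKM in the other controls and 6.94 ± 0.733 FPKM in CR (limma adjusted p = 0.259). HSF1 is known to be regulated largely after translation. The libraries measured RNA only, so the activity of HSF1 was not tested. Hspa4, a further HSP70 exchange factor, and the brain-enriched cochaperone Dnajb6 were at 65.5 ± 4.60 and 57.5 ± 4.65 FPKM in control and at 62.3 ± 1.04 and 58.0 ± 1.02 FPKM in CR, and neither passed.

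None of the mitochondrial chaperones passed. Hspa9 (mortalin), the HSP70 of the matrix, was at 73.8, 72.6 and 72.9 FPKM in control and at 74.8, 75.7 and 74.7 FPKM in CR. The groups did not overlap, but the difference was small (log2 fold change 0.04, SE 0.0375, limma adjusted p = 0.470). Hspd1 (HSP60) was at 124, 135 and 149 FPKM in control and 131 ± 1.85 FPKM in CR. Hspe1 (HSP10) was at 300.0, 313 and 363 FPKM in control and 323 ± 6.53 FPKM in CR. The ratio of Hspe1 to Hspd1, the pair that shares the promoter stretch shown above, stayed between 2.32 and 2.54 in the 6 libraries.

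TRiC has 8 subunits, of which Tcp1, Cct2 and Cct3 are among the 35 genes. Tcp1 was at 125, 123 and 126 FPKM in control and at 122, 118 and 115 FPKM in CR. CR lay below control throughout, but it passed in 1 of 17 alternatives only (quantile normalization, adjusted p = 0.0448; main limma adjusted p = 0.186, highest 0.427). Cct2 was at 161, 181 and 178 FPKM in control and at 182, 168 and 168 FPKM in CR, with overlapping groups. Over all 8 subunits, FPKM lay between 95.2 and 182, the mean was lower in CR in 8 of 8, and 1 passed (Cct3). Log2 fold changes ran from -0.17 to -0.0043. Without control replicate 3 that of Cct2 was 0.014 and that of Cct8 -0.027, and those of the other subunits were also negative. The share of all genes with a lower mean in CR was not counted. The ratio of Cct2 to Cct3 was 1.52 to 1.59 in control and 1.75 to 1.77 in CR.

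In most of these genes control replicate 3 was the highest library, though in many of them by little. It was the highest of the 6 libraries in 22 of 35 genes (62.9%), in 13 of 19 ER genes and in 9 of 16 of the others, against 21.1% of all genes tested. The other 5 libraries were the highest in 1 to 4 of the 35 genes each. Control replicate 3 was at least 1.2 times the next highest library in 9 of the 35 genes, and 1.005 and 1.02 times in Tcp1 and Canx. It was at least 1.2 times the mean of the other controls in 13 of the 35. The shares of all genes tested at 1.2 times were not counted. Control replicate 3 was at least 1.5 times the mean of the other controls in 5 of the 35 genes (Hspa5, Herpud1, Hsph1, Dnajb1 and Hspb1), against 6.24% of all genes tested. Among the 15 genes with a promoter match control replicate 3 was the highest library in 14, the exception being Dnajb11, and among the 15 genes whose window held no match in 7. Its ratio to the mean of the other controls was 1.07 to 1.94 in the 15 genes with a match. Dnajb1 and Hspb1, at 1.74 and 8.95 times that mean, held no match. Hspd1 and Hspe1 share the same matches and are counted apart. Genes outside the 35 that hold these motifs were not counted. These counts describe these 6 libraries and were not tested. Control replicate 3 was singled out from the values of these same genes, so its counts are not separate evidence.

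**Figure D4:**
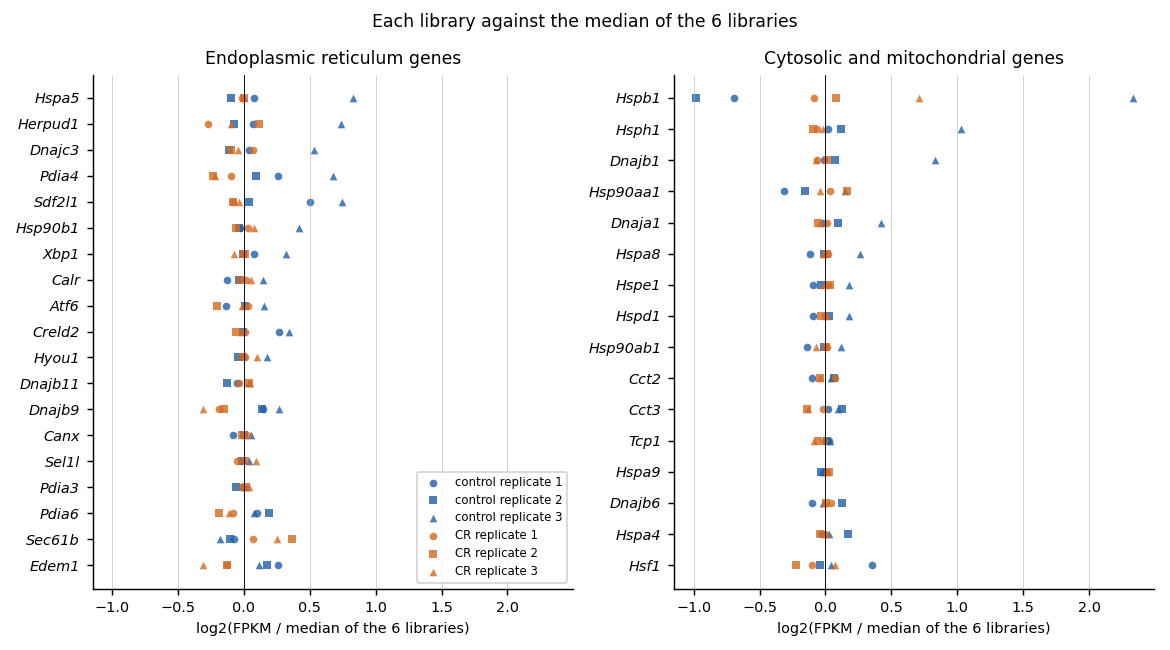
Log2 ratio of FPKM in each library to the median of the 6 libraries, per gene, ordered by the ratio of control replicate 3 to the other controls; symbols as in the plot of levels. The blue triangles of control replicate 3 lie apart on the right for Hspb1, Hsph1, Dnajb1, Hspa5 and Herpud1, and the orange CR symbols are most spread for Hspb1 (3.11 to 5.40 FPKM).

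The CR libraries were close to one another. The SD of the control values exceeded that of the CR values in 30 of 35 genes (85.7%), against 62.7% of all genes tested. The median coefficient of variation of the 35 genes was 9.70% in control and 3.17% in CR, beside 9.55% and 6.87% over all genes tested. Those genes were not matched in level to the 35. The coefficient of variation of Hspa5 was 36.2% in control and 0.692% in CR, and that of Hsph1 41.5% and 2.53%. In these genes control replicate 3 was 1.79 and 1.94 times the mean of the other controls. It was the highest library in 22 of the 35 genes, so the control spread is not separate from its height. The spread of the controls without that library was not computed.

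Other measures were set beside the height of control replicate 3. It had the lowest sum of immediate early genes (6 genes) among the controls, 19.4 FPKM against 25.1 and 27.0, with 14.2 to 20.8 FPKM in CR. Its dorsal telencephalic markers were the lowest of the controls (476 FPKM), yet far above those of CR. Y-linked RNA was present in control replicate 3 (a mean of 16.7 FPKM over the genes measured) and in CR replicates 1 and 3, but not in the other controls. In those CR replicates Hspa5 was at 116 and 117 FPKM and Hsph1 at 33.8 and 34.9 FPKM. The part of Y-linked RNA, of brain region or of immediate early genes in the height of control replicate 3 was not tested.

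Lists of other genes of these pathways were then counted in the same fit. In these lists, rose and fell mean higher and lower in CR than in control. Of 116 further genes tested, 17 were higher and 13 lower in CR, 30 in all (25.9%, against 33.9% of all genes tested). Control replicate 3 was the highest library in 30 of the 116 (25.9%, against 21.1%). By list, the share that passed ran from 18.2% to 42.1% (the HSP70 system). Beside the counts per list stand 17.7% of all genes tested higher and 16.2% lower. These shares were 20.2% and 17.7% by limma-voom, and 17.7% and 15.4% without control replicate 3.

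Of 10 other stress-sensor genes of the ER, 2 were lower, none was higher (none at an unadjusted p of 0.05 or by limma-voom) and 8 did not pass. Ppp1r15b, a phosphatase subunit that reverses PERK signalling, fell from 13.1 ± 0.839 to 9.13 ± 0.955 FPKM (limma adjusted p = 0.00525). Eif2ak3, which encodes PERK, fell from 7.06 ± 0.779 to 5.56 ± 0.218 FPKM (adjusted p = 0.0378), a call that was lost without control replicate 2 or 3 or any CR replicate (0.0683 to 0.122). Ern1, which encodes IRE1, was at 1.72 ± 0.107 and 1.49 ± 0.203 FPKM (adjusted p = 0.357). Atf4, the transcription factor downstream of PERK, was at 136, 151 and 207 FPKM in control and at 127, 149.6 and 121 FPKM in CR. Its target Ddit3 (CHOP) was at 14.0, 11.4 and 24.5 FPKM in control and at 14.3, 14.1 and 14.1 FPKM in CR. In both, control replicate 3 was again the highest library and the comparison did not pass (limma adjusted p = 0.168 and 0.657). The log2 fold changes of Atf4 and Ddit3 were -0.30 and -0.15 with all libraries, and -0.12 and 0.15 without control replicate 3. The number of stress-sensor genes lower was 1 without that library.

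Of 25 other folding and translocation genes of the ER, 6 were higher (24.0%, against 17.7% of all genes tested) and 19 did not pass. None was lower (1 at an unadjusted p of 0.05, none by limma-voom). Fkbp2, a prolyl isomerase, rose from 68.8 ± 6.25 to 92.7 ± 1.52 FPKM (limma adjusted p = 0.00305) and Txndc5, a disulfide isomerase, from 20.7 ± 1.54 to 26.9 ± 1.30 FPKM (0.00624). Clgn, a calnexin relative best known from testis, rose from 1.63 ± 0.209 to 2.76 ± 0.585 FPKM (0.0233), a call that was lost without control replicate 1 or 2 or CR replicate 2 or 3 (0.0510 to 0.0767). The number higher was 8 without control replicate 3, where 17.7% of all genes tested were higher.

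Of 19 genes of ER-associated degradation, 3 passed as higher and 2 as lower, and 14 did not pass. The lectin gene Erlec1 rose from 32.4 ± 2.67 to 47.5 ± 4.10 FPKM (limma adjusted p = 0.00281), the channel gene Derl1 from 22.5 ± 1.32 to 29.3 ± 2.32 FPKM (0.00734) and the ubiquitin-conjugating enzyme gene Ube2j1 from 15.8 ± 0.843 to 20.5 ± 0.896 FPKM (0.00474). Ube2g2, of the same enzyme family, fell from 30.3 ± 1.56 to 24.2 ± 0.659 FPKM (0.00503). Ubxn4 fell from 15.9 ± 0.669 to 13.8 ± 0.423 FPKM (0.0366), and its call was lost without control replicate 1 or 3 or any CR replicate (0.0690 to 0.123). The number lower was 1 without control replicate 3.

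Of 19 other HSP70 system genes, 4 passed as higher and 4 as lower, and 11 did not pass. Stub1, which encodes the ubiquitin ligase CHIP, rose from 74.0 ± 2.45 to 94.9 ± 3.43 FPKM (limma adjusted p = 0.00192). Dnajb5 fell from 41.4 ± 1.89 to 26.5 ± 1.39 FPKM (adjusted p = 0.000632), a log2 fold change of -0.62. Bag2, an inhibitor of CHIP, fell from 11.6 ± 1.27 to 7.56 ± 0.225 FPKM (0.00335). The calls of Hspa4l (14.0 ± 2.11 and 17.5 ± 0.282 FPKM, higher), Dnajb2 (21.2 ± 1.66 and 25.3 ± 0.889 FPKM, higher) and Dnaja4 (22.2 ± 3.97 and 16.2 ± 0.937 FPKM, lower) depended on single libraries. Hspa4l was lost without control replicate 1 or 2 or any CR replicate (0.0920 to 0.108). Dnajb2 was lost without control replicate 1 or 2 or CR replicate 2 or 3 (0.0645 to 0.0879). Dnaja4 was lost without control replicate 1 or 3 or any CR replicate (0.0584 to 0.106). Without control replicate 3, where 17.7% of all genes tested were higher, 7 genes of this list were higher. The heat-inducible HSP70 genes Hspa1a and Hspa1b were not analysed here.

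Of 13 HSP90 cochaperone genes, 1 passed as higher and 2 as lower, and 10 did not pass. The number lower was 4 by limma-voom and 3 without control replicate 3. Ppp5c, a phosphatase, rose from 39.2 ± 1.98 to 46.4 ± 0.184 FPKM (limma adjusted p = 0.00930). Ahsa2, related to an activator of the HSP90 ATPase, fell from 49.3 ± 3.32 to 35.0 ± 2.83 FPKM (0.00306). Fkbp5, a steroid receptor cochaperone that glucocorticoids induce, fell from 16.1 ± 0.143 to 13.5 ± 0.662 FPKM (0.0147), and its call was lost without CR replicate 3 (0.0629).

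Of 11 other chaperonin and prefoldin subunit genes, 2 were higher, none was lower (1 at an unadjusted p of 0.05, 1 by limma-voom) and 9 did not pass. The prefoldin genes Pfdn1 and Pfdn5 rose from 85.0 ± 0.758 to 99.0 ± 3.55 FPKM (limma adjusted p = 0.00768) and from 208 ± 1.90 to 236 ± 1.11 FPKM (0.00944). The Pfdn5 call was lost with median-ratio size factors and with quantile normalization (0.309 at most). Among 8 other small heat shock and heat shock factor genes, Hsbp1, which encodes an HSF1-binding protein, rose from 315 ± 12.5 to 431 ± 21.9 FPKM (0.00152). Hsf2 fell from 37.7 ± 1.43 to 32.9 ± 0.403 FPKM (0.0176), a call that was lost without control replicate 1 or 2 or any CR replicate (0.0516 to 0.0605). The 6 others did not pass, and without control replicate 3, 2 genes of that list were higher. Of 11 other mitochondrial chaperone and protease genes, 2 were lower, none was higher (3 at an unadjusted p of 0.05, none by limma-voom) and 9 did not pass. Grpel2 fell from 5.49 ± 0.199 to 4.48 ± 0.268 FPKM (0.0448) and Yme1l1 from 28.3 ± 1.39 to 25.2 ± 0.245 FPKM (0.0474). The Grpel2 call was lost on leaving out any of the 6 libraries (0.0690 to 0.130) and the Yme1l1 call on leaving out any but control replicate 3 (0.0847 to 0.129), so that 1 gene of this list was lower without that library.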

How the data were processed

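RNA was measured in 6 libraries, 3 control and 3 CR, made with a stranded kit, per the labels' protocols. The authors deposited 1 FPKM table per library with exon lengths. The submitters' processing notes list featureCounts 2.0.1, STAR 2.7.10a, cutadapt 1.16, Trimmomatic 0.36 and Trim Galore 0.4.4, and the build mRatBN7.2; how strand was counted is not stated there. Of the 35 genes, 7 overlap a gene on the other strand. FPKM times length gave whole multiples of 1 read within 0.05, from which reads were worked out.

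Where a symbol had several identifiers, that with the highest mean was used. Genes averaging 0.5 FPKM or more were tested on log2(FPKM + 1) with limma 3.58.1 (R 4.3.3, mean trend, group as the only term) and Benjamini-Hochberg adjustment over all 15247, at 0.05. The test was checked on simulated data. A fold change on this scale understates the change of low genes. Alternatives were pseudocounts of 0.1 and 0.5, no filter, a stricter filter of 2 FPKM, quantile normalization, median-ratio size factors, a fit without trend or a robust one, a replicate block, Y-linked RNA as a covariate, limma-voom on the reads with library totals (chosen after seeing the data) and each library left out. Promoter windows came from RefSeq (GRCr8) and were matched by symbol.

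The members and lists were chosen with earlier results of these data known. All members are described; those past the threshold or above 100 FPKM have their values per library or as a mean ± SD. In the other lists, up to 3 genes per direction with the largest log2 fold change past the threshold are named, plus Hspa1a, Hspa1b, Ern1, Eif2ak3, Atf4 and Ddit3.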

Additional observations from a re-analysis of the deposited data

How the results depend on the processing

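Of 595 combinations of 35 genes and 17 alternatives, 535 kept direction and side of the threshold, 10 passed only under the alternative with the same sign, 13 were lost and 37 changed sign; none of the genes that changed sign had passed, and 1 of them, Hspb1, passed with its sign changed (0.78 without control replicate 3). The cause was not tested. The number of genes that passed among all genes was 4445 to 5779 outside the left-out libraries and 3243 to 5037 with 1 library left out (3243 without CR replicate 2 and 3339 without CR replicate 3, which leave fewer samples), against 5173. Lower ER genes numbered 2 to 6 with 1 library left out (2 without CR replicate 3, 6 without control replicate 2), against 4. Higher cytosolic and mitochondrial genes numbered 0 to 2 (2 without control replicate 3, Hsp90aa1 and Hspb1), against 0, and lower ones 0 to 1, against 1. Lower cytosolic and mitochondrial genes numbered 0 with no filter, median-ratio size factors, no trend or the replicate block, and 2 with quantile normalization or the Y-linked covariate. With the replicate block 4445 genes passed in all, 4 ER genes were lower and 1 was higher. Same-numbered libraries had correlations of 0.024, 0.020 and 0.045 in their deviations, and other pairs had correlations from -0.043 to 0.017. The same-numbered values were the highest but small, and the numbers were not taken as a pairing. The planned TMM scaling for limma-voom was not run; library totals were used instead, a choice made after seeing the data.

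Sign changes outside the left-out libraries were at log2 fold changes of -0.0059 for Pdia3 (quantile), -0.0088, -0.099 and -0.024 for Calr (median-ratio, quantile, Y-linked covariate), -0.020, -0.063 and -0.0081 for Canx (the same settings), -0.020 for Sel1l (median-ratio), 0.018 for Hsp90ab1 (quantile), -0.016 and -0.025 for Dnajb6 (median-ratio, quantile), and 0.0013 and 0.075 for Hspb1 (pseudocount 0.1, limma-voom). With 1 library left out, log2 fold changes ran from -0.45 to 0.0042 for Hspa5, -0.18 to 0.051 for Hsp90b1, -0.28 to 0.011 for Dnajc3, -0.049 to 0.053 for Hyou1, -0.037 to 0.098 for Calr, -0.024 to 0.043 for Canx, -0.025 to 0.043 for Sel1l and -0.12 to 0.00086 for Atf6. They ran from -0.12 to 0.073 for Hspa8, -0.11 to 0.024 for Hspd1, -0.059 to 0.077 for Hspe1, -0.071 to 0.055 for Hsp90ab1, -0.036 to 0.076 for Dnajb6, -0.58 to 0.78 for Hspb1 and -0.056 to 0.029 for Cct2.

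Depth limits Hspb1 most, at 27 to 289 reads per library. With 3 libraries a group, differences of the size of the spread in control (a median of 9.70% for these genes) can go undetected.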

Other observations

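Control replicate 3 was at least 1.5 times the mean of the other controls in 6 of the 116 further genes. This stands against 6.24% of all genes tested, so the wider lists held no excess by this measure. The genes were Bag3, Hspb8, Chordc1, Ddit3, Derl3 and Creb3l1, and none of them passed with all 6 libraries. Bag3, Hspb8 and Chordc1 are described here and were chosen after their values were seen. Bag3, an HSP70 cochaperone that heat shock induces, was at 1.23, 0.887 and 5.05 FPKM in control and at 1.01, 1.58 and 1.14 FPKM in CR. Hspb8, the small heat shock protein that binds BAG3, was at 2.30, 2.02 and 5.16 FPKM in control and at 3.34, 3.35 and 3.62 FPKM in CR. Chordc1, an HSP90 cochaperone, was at 16.3, 14.2 and 25.7 FPKM in control and at 11.9, 12.5 and 11.8 FPKM in CR. In Chordc1 all CR values lay below the control values, and in Bag3 and Hspb8 the groups overlapped, in Hspb8 through control replicate 3 being the highest library while the other controls lay below CR. Without that library Hspb8 was higher in CR (log2 fold change 0.49, limma adjusted p = 0.0104, and up to 0.998 over 17 alternatives) and Chordc1 lower (-0.31, adjusted p = 0.0197, and up to 0.131 over the alternatives, of which it passed 6). For Bag3 the log2 fold change was then 0.12 (adjusted p = 0.577, within 0.211 to 0.646 over the alternatives).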
